A study of Mus musculus with 6 samples.

Results

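The subject here is the myosin light chains of sarcomeric and non-muscle myosin, with the kinase that phosphorylates the regulatory ones. The list holds 10 mouse genes, chosen by name with earlier results of these data known. The sarcomeric chains are Myl1, Myl3, Myl4 and Mylpf. Classed here by name as non-muscle and smooth muscle chains are Myl6, Myl6b, Myl9, Myl12a and Myl12b, and Mylk is the kinase gene. Of the 10 genes, 9 have rows in the table of 17558 genes, with 38 annotated transcripts among its 57920. Myl3 was not analysed here. All 9 passed the filter on low counts that left 12643 genes to test.

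RNA was sequenced from C2C12 cells, an immortalized mouse myoblast line that leaves the cell cycle and fuses into myotubes when serum is reduced. All 6 libraries came from cells kept for 48 h in differentiation medium with horse serum, insulin, transferrin and selenium. The 3 groups of 2 libraries stably carried a scrambled hairpin (shScr, genotype given as WT), a hairpin against the Pkm1 isoform of pyruvate kinase (shPkm1) or one against the Pkm2 isoform (shPkm2), in a study of what these isoforms do in myoblast differentiation. The hairpin was the only labelled difference between groups, and the labels give neither its sequence, the number of hairpins and clones, nor whether replicates were separate cultures, so p-values measure only the spread between these libraries.

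Each myosin heavy chain carries an essential and a regulatory light chain on its lever arm. Muscle fibres use sarcomeric chains bound to sarcomeric heavy chains, while the non-muscle chains serve the myosins that tension the cell cortex and stress fibres and are made in almost every cell. Phosphorylation of a regulatory chain by myosin light chain kinase switches non-muscle and smooth muscle myosin on, and myosin phosphatase reverses it. When myoblasts differentiate, MyoD-family factors, which bind the E-box CANNTG, turn on the sarcomeric chains, while the serum response factor Srf binds the CArG box, found at many smooth muscle genes.

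Upstream sequence is shown for 5 members that differed in how their levels moved: the fast sarcomeric chains Mylpf and Myl1, the tandem neighbours Myl6b and Myl6, and Myl9. The sequences are from RefSeq on GRCm38, each read 5′ to 3′ on the gene's strand. Those of Mylpf, Myl6b and Myl6 are the 250 bases before the annotated start, at chr7:127211358-127211607 (plus strand), chr10:128498686-128498935 (minus) and chr10:128493887-128494136 (minus). Those of Myl1 and Myl9 are the far 150 bases of that window, at chr1:66945157-66945306 (minus) and chr2:156775214-156775363 (plus). Capitals mark an E-box (CANNTG) or, in Myl9, a CArG box.
Mylpf: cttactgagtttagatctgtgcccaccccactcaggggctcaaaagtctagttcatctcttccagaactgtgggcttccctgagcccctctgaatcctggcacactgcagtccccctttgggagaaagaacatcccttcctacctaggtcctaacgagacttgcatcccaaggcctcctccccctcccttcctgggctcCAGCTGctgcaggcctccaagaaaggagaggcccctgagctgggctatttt
Myl1: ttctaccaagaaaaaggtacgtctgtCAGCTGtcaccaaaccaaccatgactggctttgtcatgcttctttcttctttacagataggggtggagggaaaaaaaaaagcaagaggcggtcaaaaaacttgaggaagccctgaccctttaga
Myl6b: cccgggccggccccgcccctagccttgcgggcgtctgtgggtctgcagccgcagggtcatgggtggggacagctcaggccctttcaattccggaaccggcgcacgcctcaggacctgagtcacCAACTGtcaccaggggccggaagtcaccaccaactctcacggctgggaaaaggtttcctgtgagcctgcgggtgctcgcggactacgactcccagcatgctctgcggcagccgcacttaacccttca
Myl6: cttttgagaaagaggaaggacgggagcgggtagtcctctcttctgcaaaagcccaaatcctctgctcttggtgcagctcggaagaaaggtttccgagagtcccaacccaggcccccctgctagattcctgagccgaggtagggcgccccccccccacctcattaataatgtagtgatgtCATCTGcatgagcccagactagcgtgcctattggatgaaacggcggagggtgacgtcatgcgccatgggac
Myl9: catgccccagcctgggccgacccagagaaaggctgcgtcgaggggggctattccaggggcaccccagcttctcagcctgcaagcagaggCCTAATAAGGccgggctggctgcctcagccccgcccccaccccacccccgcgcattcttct

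Searched on both strands, CANNTG occurred in 66.2% of the 32851 RefSeq windows of 250 bases, its form CAGCTG in 13.0% and the CArG box in 1.47%. Also searched were the MCAT element CATTCC (12.6%), TATAAA (12.4%) and the MEF2 site (2.92%). Mylpf and Myl1 hold CAGCTG, starting 51 and 224 bases before the start. Myl6b holds CAACTG at 127 bases and Myl6 holds CATCTG at 71 bases. The Myl9 window holds the CArG box CCTAATAAGG at 161 bases and no E-box. Among the windows not shown, Myl12a holds 3 E-boxes, one of them CAGCTG, the window of a second Myl6 start holds the CArG box CCTTATATGG, Mylk holds only CATTCC, at 158 bases, and Myl4 and Myl12b hold none of the motifs searched. The window of Myl3, whose level was not analysed here, holds the CArG box CCTTTTATGG at 85 bases, the E-box CAGGTG at 189 bases and CATTCC at 149 bases and, on the other strand, at 177 bases. Myl1 also holds CATTCC and TATAAA on the other strand, 80 and 95 bases before the start. The MEF2 site was in no member's window. A window belongs to 1 annotated start. That of Myl1 is the upstream start (MLC1f), that of Myl4 the start of NM_010858.4, which carried 1.11% and 0.996% of Myl4 TPM in shScr, and that of Mylk the start of NM_139300.3. The other transcripts of these 3 genes, which together carried more of the TPM in shScr, were not matched to windows. These matches describe the letters of the windows and say nothing of factor binding in these cells.

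The libraries held 18216896 to 19796036 estimated counts. The Pkm1 transcript (NM_001253883.1), given in TPM (a relative abundance scaled to transcript length and library depth), stood at 546 and 589 TPM in shScr, 243 and 218 TPM in shPkm1 and 254.1 and 254.2 TPM in shPkm2. The Pkm2 transcript (NM_011099.3) stood at 1073 and 1517 TPM in shScr, 1278 and 1379 TPM in shPkm1 and 2700 and 2629.5 TPM in the libraries labelled shPkm2, where it was therefore not lower. Every direction given for shPkm2 below refers to the libraries labelled so. Defining skeletal muscle markers (8 genes such as Acta1 and Ckm) summed to between 20318 and 26580 TPM in shScr, 10645 to 11545 TPM in shPkm1 and 1285 to 1375 TPM in shPkm2. Fibroblast markers (6 genes, with Lum and Thy1 at or near 0) summed to 627 to 697, 4403 to 4541 and 372 to 414 TPM in the same order, mostly from Col1a1 and Col1a2. The 4 tested fibroblast markers all rose in shPkm1, and in shPkm2 1 rose, 2 fell and 1 was not called. Over all tested genes 31.8% rose in shPkm1, and 33.9% rose and 34.2% fell in shPkm2. In shPkm2 Col1a1 was at 50.5 and 43.2 TPM against 359 and 362 TPM in shScr, whereas Pdgfra was at 10.2 and 9.47 TPM against 1.02 and 1.61 TPM. Smooth muscle markers (5 genes) summed to 69.7 to 72.1, 196 to 203 and 70.8 to 76.7 TPM, with Myh11 and Myocd at or near 0. In the cardiac list (6 genes) Myl7 was at 0 in every library and the sums stayed at or below 29.5 TPM, and the adipocyte list (5 genes) reached at most 1.06 TPM.

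The sarcomeric chains made up most of the light chain transcripts of the control and fell to a small remainder in shPkm2, and Myl6b fell too. The summed level of the other non-muscle chains lay in overlapping ranges in the 3 groups. With Myl6b included, that sum stepped down from shScr through shPkm1 to shPkm2. Relative to shScr, shPkm1 had 5 of the 9 tested genes lower (Mylpf, Myl1, Myl4, Myl6b, Myl6), 3 higher (Myl12b, Myl9, Mylk) and Myl12a without a call. In the same comparison 31.4% of all tested genes were lower and 31.8% higher. Relative to shScr, shPkm2 had 8 members lower and only Myl12b higher, where 34.2% of all genes were lower and 33.9% higher. Directly compared with shPkm1, shPkm2 had 8 members lower, none higher and Myl6 without a call, where 27.3% of all genes were lower and 25.7% higher. The median log2 fold change of the members was -0.61, -1.44 and -1.90 in these 3 comparisons, against -0.0001, 0.0074 and 0.0046 over all tested genes. The calls are those of edgeR's quasi-likelihood test at a Benjamini-Hochberg adjusted p of 0.05 over all genes. Both comparisons with shScr share the control libraries. Since these are whole cultures, fewer differentiated cells and less RNA of a gene per cell cannot be told apart.

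**Figure D1:**
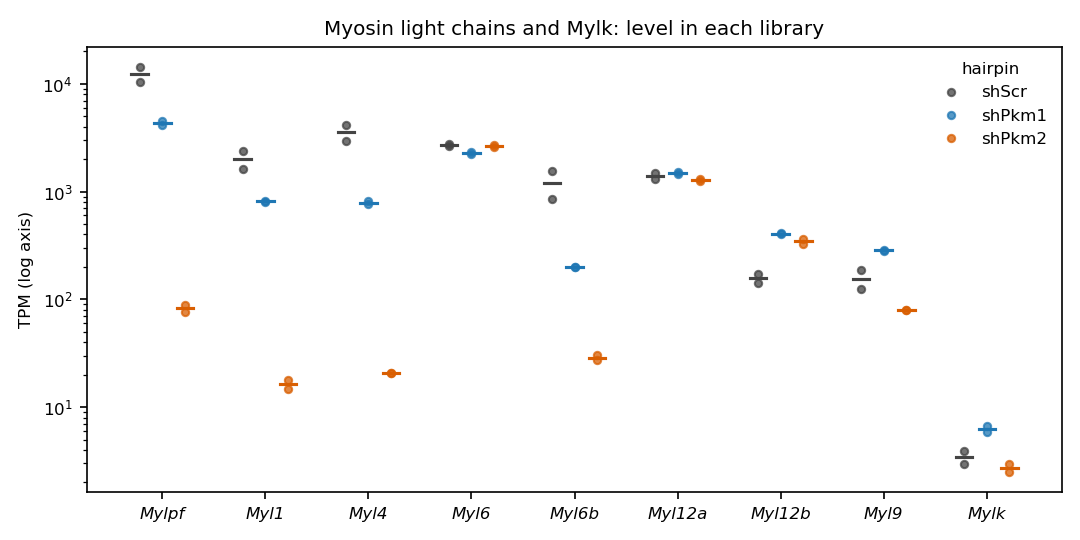
Level of each member in TPM on a log axis, with 1 point per library and a bar at the mean of each hairpin group (2 libraries each). Mylpf, Myl1, Myl4 and Myl6b step down from shScr through shPkm1 to shPkm2, while Myl6 and Myl12a stay within 2242 to 2759 and 1247 to 1519.7 TPM.

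Mylpf, the regulatory chain of fast skeletal muscle, was the most abundant light chain in shScr. It measured 14249 and 10408 TPM in shScr, 4161 and 4527 TPM in shPkm1, and 76.7 and 88.5 TPM in shPkm2. The 3 groups did not overlap, and the control libraries lay further apart than those of the other groups. Mylpf fell by 1.91 on the log2 scale in shPkm1 (SE 0.193, edgeR adjusted p = 2.34e-06), a 3.75-fold lower level. In shPkm2 it fell by 7.69 (SE 0.253, edgeR adjusted p = 2.99e-11), 206-fold below shScr, and 55.0-fold below shPkm1. Counts were not limiting, since the shPkm2 libraries still held 576 and 698 estimated counts of it.

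Myl1 encodes the fast essential chains MLC1f and MLC3f from 2 starts. Its level was 2369 and 1624 TPM in shScr, 801 and 826 TPM in shPkm1, and 14.7 and 17.8 TPM in shPkm2. The order of the groups matched that of Mylpf, again with no overlap. The log2 fold change was -1.65 in shPkm1 (SE 0.193, edgeR adjusted p = 8.2e-06) and -7.46 in shPkm2 (SE 0.262, edgeR adjusted p = 5.13e-11).

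Myl4, the essential chain of embryonic skeletal muscle and of the atrium, was the second most abundant light chain of the control. It stood at 4188 and 2967 TPM in shScr, 761 and 822 TPM in shPkm1, and 20.7 and 20.9 TPM in shPkm2. Its fall in shPkm1 (-2.58, SE 0.186, edgeR adjusted p = 1.08e-07) was 5.97-fold, and in shPkm2 (-7.88, SE 0.244, edgeR adjusted p = 1.73e-11) it was 235-fold. In shPkm1 the levels of Myl1 and Myl4 overlapped, although Myl4 was above Myl1 in both control libraries and both shPkm2 libraries.

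Myl6b, an essential chain counted with the non-muscle chains by name, fell with the sarcomeric ones. Its values were 1559 and 855 TPM in shScr, 198 and 200.5 TPM in shPkm1, and 27.5 and 30.1 TPM in shPkm2. As a ratio the 2 control libraries differed most for this member, but both lay above every other library. Myl6b fell by 3.01 on the log2 scale in shPkm1 (SE 0.248, edgeR adjusted p = 3.69e-07), the furthest fall of the 9 genes there. It fell by 5.82 in shPkm2 (SE 0.290, edgeR adjusted p = 1.41e-09). Without shScr replicate 1 these values were -2.39 and -5.20. The direct comparison of shPkm2 with shPkm1 gave -2.81 (SE 0.264, edgeR adjusted p = 1.27e-06).

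Myl6, the essential chain of non-muscle and smooth muscle myosin, lies 270 bases downstream of Myl6b on chromosome 10 and changed by far less. Its level was 2634 and 2759 TPM in shScr, 2242 and 2326 TPM in shPkm1, and 2587 and 2709 TPM in shPkm2. The control and shPkm2 libraries overlapped on this scale and both shPkm1 libraries were lower. On counts scaled by TMM (trimmed mean of M values, a factor per library that centres the bulk of genes), Myl6 was lower in shPkm1 (-0.61, SE 0.118, edgeR adjusted p = 0.000589) and in shPkm2 (-0.48, SE 0.118, edgeR adjusted p = 0.00287). On log2(TPM + 1) with limma these differences were -0.24 (adjusted p = 0.0702) and -0.03 (adjusted p = 0.842), so the Myl6 calls depend on the scaling. The median of all genes lay 0.31 and 0.36 higher on that scale than on counts with TMM. The shPkm2 call was also lost with library totals (-0.15, adjusted p = 0.234) and without shPkm2 replicate 1 (-0.40, adjusted p = 0.0568). The ratio of Myl6b to Myl6 in TPM was 0.592 and 0.310 in shScr, 0.088 and 0.086 in shPkm1, and 0.011 in both shPkm2 libraries.

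Myl12a and Myl12b encode near-identical non-muscle regulatory chains and lie 3276 bases apart on chromosome 17. Their estimated counts carried fractions, such as 19892.49 and 1523.51 in shScr replicate 1, which sum to a whole number, so the split of reads between the pair is uncertain. Myl12a measured 1306 and 1473 TPM in shScr, 1471 and 1519.7 TPM in shPkm1, and 1247 and 1321 TPM in shPkm2, and every pair of groups overlapped except shPkm1 and shPkm2. Myl12b measured 143 and 171 TPM in shScr, 409.6 and 403 TPM in shPkm1, and 328 and 362 TPM in shPkm2, and no groups overlapped.

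Myl12b was the only member above the control under both hairpins. It rose by 0.99 on the log2 scale in shPkm1 (SE 0.105, edgeR adjusted p = 3.57e-06) and by 0.69 in shPkm2 (SE 0.105, edgeR adjusted p = 6.08e-05). Myl12a gave -0.22 in shPkm1 (SE 0.116, edgeR adjusted p = 0.115), with the sign turned to 0.11 on log2(TPM + 1). In shPkm2 it gave -0.53 (SE 0.116, edgeR adjusted p = 0.00116), a call lost with library totals as the scale (-0.21, adjusted p = 0.103) and on TPM. Myl12b made up 9.84% and 10.4% of the summed TPM of the pair in shScr, 21.8% and 21.0% in shPkm1, and 20.8% and 21.5% in shPkm2.

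Myl9, the regulatory chain best known from smooth muscle, moved in opposite directions under the hairpins. It was at 186 and 125 TPM in shScr, 282 and 287 TPM in shPkm1, and 79.5 and 79.7 TPM in shPkm2. Both shPkm1 libraries were above and both shPkm2 libraries below the control libraries. In shPkm2 the log2 fold change from shScr was -1.44 (SE 0.182, edgeR adjusted p = 1.15e-05), and from shPkm1 it was -1.90 (SE 0.183, edgeR adjusted p = 1.54e-06). The rise in shPkm1 was 0.46 (SE 0.175, edgeR adjusted p = 0.0335) and rested on single libraries. It was 0.13 (adjusted p = 0.276) without shScr replicate 2, 0.52 (adjusted p = 0.0928) without shPkm1 replicate 1, 0.42 (adjusted p = 0.162) without shPkm1 replicate 2 and 0.89 without shScr replicate 1. DESeq2 did not call it (adjusted p = 0.194).

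Mylk, which encodes myosin light chain kinase, was the least abundant member. Its level was 2.94 and 3.89 TPM in shScr, 6.72 and 5.88 TPM in shPkm1, and 2.95 and 2.49 TPM in shPkm2, from 223 to 504 estimated counts per library. The shPkm1 libraries stood above all others, and the shPkm2 and control libraries overlapped in TPM. Mylk was higher in shPkm1 (0.49, SE 0.129, edgeR adjusted p = 0.00517) and lower in shPkm2 (-0.76, SE 0.137, edgeR adjusted p = 0.000249). The direct difference of shPkm2 from shPkm1 was -1.25 (SE 0.133, edgeR adjusted p = 4.12e-06). The shPkm1 call was lost without shPkm1 replicate 1 (0.42, adjusted p = 0.0556), and the shPkm2 call on log2(TPM + 1) with limma (-0.24, adjusted p = 0.192). The fibroblast and smooth muscle marker sums given above were also highest in shPkm1, and their part in the Mylk and Myl9 values was not tested.

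**Figure D2:**
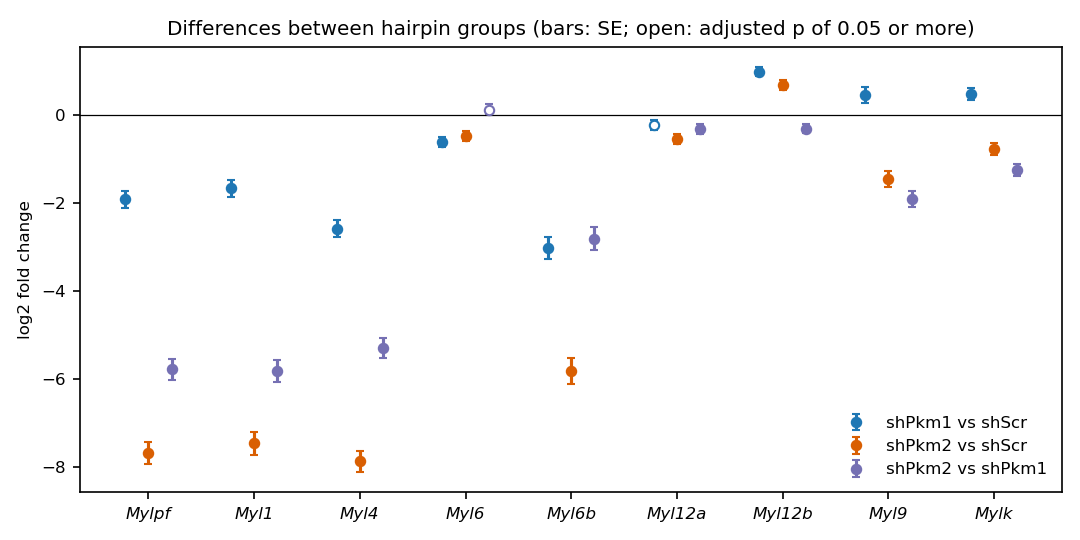
Log2 fold change of each member from edgeR for shPkm1 against shScr, shPkm2 against shScr and shPkm2 against shPkm1, with standard errors as bars and open points where the adjusted p was 0.05 or more. The sarcomeric chains Mylpf, Myl1 and Myl4 lie between -7.46 and -7.88 in shPkm2, and Myl9 and Mylk are above 0 in shPkm1 and below 0 in shPkm2.

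The direct contrast of the hairpin groups separated the members into 3 ranges. The 3 sarcomeric chains were lower in shPkm2 by -5.30 (Myl4, SE 0.222) to -5.81 (Myl1, SE 0.248), with an edgeR adjusted p of at most 5.82e-10. Myl6b, Myl9 and Mylk were lower by -2.81, -1.90 and -1.25. Myl12a (-0.31, SE 0.116, edgeR adjusted p = 0.0363) and Myl12b (-0.30, SE 0.103, edgeR adjusted p = 0.0254) passed narrowly and Myl6 (0.13, SE 0.118, edgeR adjusted p = 0.361) did not. The calls of Myl12a and Myl12b were both lost with library totals as the scale (adjusted p = 0.168 and 0.201), on log2(TPM + 1) (adjusted p = 0.111 and 0.0946) and without either shPkm1 replicate or shPkm2 replicate 1, and that of Myl12a also without shPkm2 replicate 2.

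Summed over the 8 light chain genes with rows, light chain transcripts made up 26633 and 20380.2 TPM in shScr, 10325 and 10912 TPM in shPkm1, and 4381 and 4629 TPM in shPkm2. The difference lay in the sarcomeric chains and Myl6b. Mylpf, Myl1 and Myl4 together held 20806 and 14998 TPM in shScr, 5723 and 6175 TPM in shPkm1, and 112 and 127 TPM in shPkm2. The other chains without Myl6b (Myl6, Myl12a, Myl12b and Myl9) held 4268 to 4528 TPM in shScr, 4404 to 4536 TPM in shPkm1 and 4241 to 4472 TPM in shPkm2. These 3 ranges overlapped. The sum without Myl6b was not planned beforehand, and with Myl6b added the ranges did not overlap. TPM are shares of a library, so they do not give amounts per cell.

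The sarcomeric share of light chain TPM was 75.9% ± 3.203 (SD, n = 2) in shScr, 56.0% ± 0.819 (SD, n = 2) in shPkm1 and 2.65% ± 0.134 (SD, n = 2) in shPkm2. These shares were not tested. Essential chains made up 40.3% ± 0.078 (SD, n = 2), 38.5% ± 0.350 (SD, n = 2) and 60.3% ± 0.343 (SD, n = 2) of light chain TPM in the same order. With curated transcripts only, they made up 30.4%, 36.1% and 72.0%, so the order of shScr and shPkm1 depends on the transcripts counted. That setting leaves out most of Myl4, whose curated transcript carried 1.05%, 1.15% and 2.32% of its TPM (group means). From estimated counts, not scaled to length, essential chains made up 41.5%, 35.0% and 45.7%, so the size of the shPkm2 difference depends on the scale. Among essential chains, Myl6 supplied 29.1%, 55.9% and 97.6% of the TPM, as means of the groups. Among regulatory chains, Mylpf supplied 87.6%, 66.5% and 4.61%, and Myl12a 10.2%, 22.9% and 71.7%. The ratio of Mylpf to the sum of Myl1 and Myl4 in TPM was 2.17 and 2.27 in shScr, 2.66 and 2.75 in shPkm1, and 2.16 and 2.28 in shPkm2. The shScr and shPkm2 libraries overlapped in this ratio and both shPkm1 libraries were higher.

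**Figure D3:**
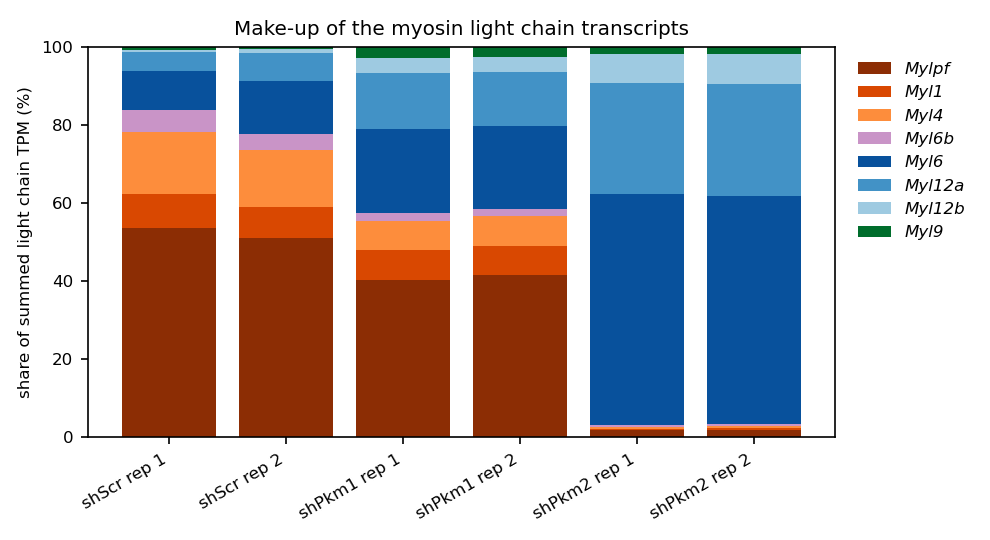
Share of each gene in the summed light chain TPM of each library, in percent. Mylpf takes 53.5% and 51.1% of the control libraries and 1.75% and 1.91% of the shPkm2 libraries, where Myl6 takes 59.1% and 58.5%.

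Transcripts of 2 members are shown for their alternative forms. Myl6 has an alternative exon near its end, exon 6 of 7, at chr10:128491720-128491764 on the minus strand, 45 bases long, which gives the protein a different C terminus. Without it the last coding bases lie in the final exon, at chr10:128491008-128491033 before the stop. Both coding ends, read from GENCODE transcripts on GRCm38, are given with the stop codon in capitals.
Myl6 with the exon: catttgtgaggcatatcctgtcggggTGA
Myl6 without the exon: agcttgtccggatggtgctgaatggcTGA

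The transcript without the exon (NM_010860.4) carried 58.3% and 58.8% of Myl6 TPM in shScr, 42.5% and 40.7% in shPkm1, and 54.6% and 57.3% in shPkm2. The transcript with it (NM_001317218.1) carried 37.9% and 39.1%, 54.9% and 57.0%, and 44.7% and 41.4%. In both shPkm1 libraries the order of the pair was the reverse of that in the other 4 libraries. In the transcript fit NM_010860.4 fell by 1.09 in shPkm1 (SE 0.107, edgeR adjusted p = 0.00988), while NM_001317218.1 gave -0.05 (SE 0.0885, edgeR adjusted p = 0.809). The fall was not called without shPkm1 replicate 1 (adjusted p = 0.0929) or replicate 2 (adjusted p = 0.0691). A test of each transcript against the rest of its gene (edgeR diffSpliceDGE) gave an adjusted p of 1.0 for both Myl6 transcripts in all 3 comparisons.

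Myl1 starts at 2 places 9789 bases apart. The transcript of the downstream start (NM_001113387.1, MLC3f) carried 58.8% and 65.8% of Myl1 TPM in shScr, 45.4% and 47.2% in shPkm1, and 73.1% and 69.9% in shPkm2. That of the upstream start (NM_021285.3, MLC1f) carried 34.7% and 25.9%, 45.6% and 46.3%, and 19.2% and 16.4%. The MLC3f share was lowest in both shPkm1 libraries and highest in both shPkm2 libraries, where the gene had only 125 and 156 estimated counts. The share test did not call either transcript (smallest adjusted p = 0.256, for MLC1f in shPkm2 against shPkm1). It called MLC1f there when only those groups were fitted (adjusted p = 0.00608) and without shScr replicate 1 or 2 (adjusted p = 0.0218 and 0.0235).

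**Figure D4:**
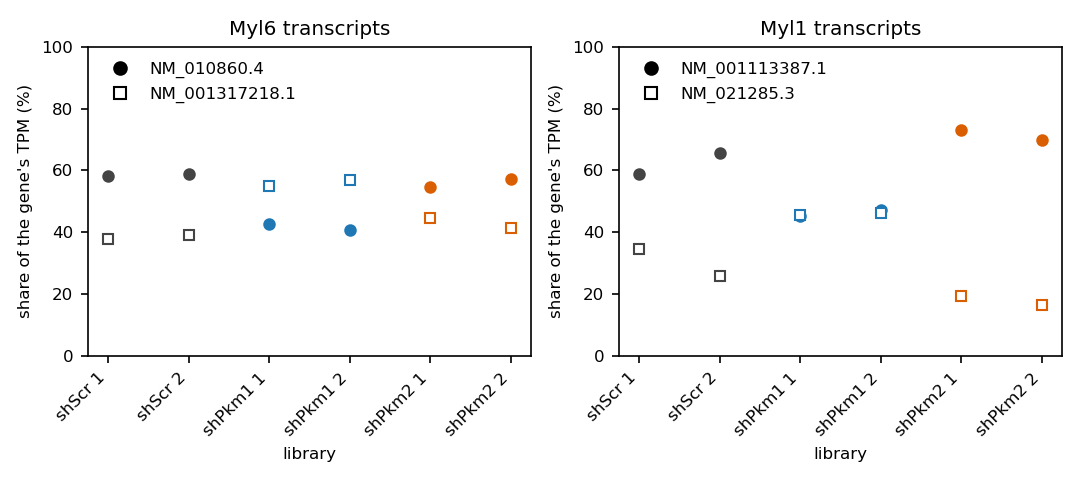
Share of 2 transcripts in the TPM of Myl6 (left) and Myl1 (right) in each library, in percent. The Myl6 transcripts change order in both shPkm1 libraries, and the Myl1 transcripts are nearly equal there.

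Of 31 member transcripts tested, 9 passed the transcript test in shPkm1 against shScr, 17 in shPkm2 against shScr and 12 in shPkm2 against shPkm1, where 10.8%, 17.2% and 7.91% of the 33433 tested transcripts passed. With either 1 of the shPkm1 replicates left out, 0 member transcripts passed the edgeR transcript test in shPkm1 against shScr. None of the member transcripts passed the share test, which called 0.411%, 1.1% and 0.526% of 28695 transcripts in these comparisons. Mylpf, Myl6b, Myl9 and Myl12b each had a single transcript with 87.7% or more of their TPM in every group mean. Mylk was divided between NM_139300.3 (28.4%, 47.1% and 54.9% of TPM, group means) and the model transcript XM_006521702.1 (62.1%, 39.9% and 30.2%). Of this pair only XM_006521702.1 was called in shPkm2 against shScr (-1.82, SE 0.285, edgeR adjusted p = 0.0176), a call lost when any library but shScr replicate 1 was left out (adjusted p from 0.0528 to 0.107).

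Other genes of light chain biology were read from lists chosen by name, with earlier results of these data known. Of the 6 other light chain and kinase genes, Myl2 and Myl10 stayed under 1 TPM in every library, Myl7 was at 0 and 3 were tested. Mylk4 was at 8.97 and 6.40 TPM in shScr, 6.09 and 5.74 TPM in shPkm1, and 0.25 TPM in both shPkm2 libraries, a log2 fold change of -0.76 and -5.52 from shScr (edgeR adjusted p = 0.00234 and 1.68e-09). The shPkm1 call of Mylk4 was lost on log2(TPM + 1) (adjusted p = 0.107). Mylk2, the skeletal muscle light chain kinase, was lower in both (-0.61 and -1.11, edgeR adjusted p = 0.0305 and 0.000802), with the shPkm1 value at -0.09 (adjusted p = 0.634) without shScr replicate 1 and not called without either shPkm1 replicate. Mylk3, the cardiac kinase, moved as Mylk did, higher in shPkm1 (1.21) and lower in shPkm2 (-1.55), but never exceeded 0.89 TPM, and DESeq2 called neither (adjusted p = 0.149 and 0.104). Under the limma fit of log2(TPM + 1), 1 of the 3 kinases was higher and none lower in shPkm1, where 49% of all tested genes were higher and 13.7% lower.

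The list of light chain phosphorylation (24 genes, 23 tested) divided in direction. In shPkm1 against shScr 10 rose, 8 fell and 5 were not called, with a median log2 fold change of 0.26, where 31.8% of all tested genes rose and 31.4% fell. In shPkm2 against shScr 10 rose and 9 fell (median 0.08), where 33.9% and 34.2% of all genes did. In shPkm2 against shPkm1 7 rose and 9 fell (median 0.004), where 25.7% and 27.3% did. These counts lie near the shares over all genes. On log2(TPM + 1) the splits in the same order were 15 higher and 3 lower, 12 and 7, and 3 and 7, where 49% and 13.7%, 52.4% and 16.8%, and 25.6% and 22% of all genes were called on that scale. With library totals they were 12 and 5, 12 and 7, and 8 and 7, where 40.5% and 21%, 48.2% and 21.4%, and 33.9% and 21.3% of all genes were called. Over all genes, too, the calls against shScr moved towards higher on both scales. In the direct contrast 1 to 3 genes were called higher when a single shPkm1 or shPkm2 library was left out. Citron kinase Cit, which acts on the cleavage furrow, rose by 1.77 in shPkm1 and 2.22 in shPkm2 (edgeR adjusted p = 3.46e-06 and 2.32e-07). Ppp1cb, the catalytic subunit of myosin phosphatase, rose by 1.21 in shPkm1 and by 0.78 in shPkm2. The small GTPase gene Rhob fell by 1.15 in shPkm1 and fell by 2.49 in shPkm2 (edgeR adjusted p = 1.37e-06 and 6.84e-10). Ppp1r12b, a targeting subunit of myosin phosphatase, fell by 1.99 in shPkm2, and the phosphatase inhibitor gene Ppp1r14c was lower in shPkm2 than in shPkm1 (-1.98).

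The heavy chains that carry light chains were read as 2 lists. Of the 9 sarcomeric heavy chain genes, all tested, 8 fell and 1 rose in shPkm1, and 9 fell in shPkm2 both against shScr and against shPkm1. Over all tested genes 31.4% fell and 31.8% rose in shPkm1, and 34.2% and 27.3% fell in the other two comparisons. Their median log2 fold change was -1.46 in shPkm1 and -7.16 in shPkm2 against shScr. Embryonic Myh3, the most abundant of them, stood at 1582 and 1318 TPM in shScr, 351 and 423 TPM in shPkm1, and 10.9 and 8.74 TPM in shPkm2 (-2.30 and -7.67 from shScr). The riser was Myh13, at 0.37 TPM at most and at 0 in both shPkm2 libraries; with it at the bound set by 3 counts over the group, the median of shPkm2 against shScr was still -7.16.

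Of the 4 non-muscle and smooth muscle heavy chain genes, Myh11 was under 0.1 TPM and not tested. Of the other 3, 1 rose, 1 fell and 1 was not called in each comparison with shScr. Over all genes 31.8% were higher and 31.4% lower in shPkm1, and 33.9% and 34.2% in shPkm2, but 3 genes are too few to compare with these shares. In shPkm2 against shPkm1 2 rose and none fell, where 25.7% and 27.3% of all genes did. Myh9 measured 179 and 267 TPM in shScr, 343 and 393 TPM in shPkm1, and 422 and 315 TPM in shPkm2, and was not called in any comparison. It was called higher in both comparisons with shScr on library totals, on log2(TPM + 1) and without shScr replicate 2, and in shPkm1 also by DESeq2 and by edgeR without the filter on low counts. Myh10 rose in both, by 0.39 in shPkm1 (edgeR adjusted p = 0.0212, but 0.126 without shScr replicate 1 and 0.157 without shPkm1 replicate 2) and by 1.56 in shPkm2 (edgeR adjusted p = 2.75e-07), and it was higher in shPkm2 than in shPkm1 (1.17, edgeR adjusted p = 6.18e-06). Myh14 was the gene called lower in both, at 0.22 TPM at most and at 0 in both shPkm1 libraries. Its shPkm2 difference was -2.04 (edgeR adjusted p = 0.00469), a call lost on log2(TPM + 1), with DESeq2 and without shPkm2 replicate 2. It was the other gene called higher in shPkm2 than in shPkm1, a call lost on log2(TPM + 1) and without shPkm1 replicate 1, shPkm1 replicate 2 or shPkm2 replicate 1.

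Partners of the thick filament and myosin chaperones (12 genes, 11 tested) were mostly lower. In each comparison with shScr 10 fell, none rose and the general chaperone Unc45a was not called (0.04 in shPkm1 and -0.05 in shPkm2). On log2(TPM + 1) 10 fell and Unc45a rose in each, where 13.7% and 16.8% of all genes fell. Against shPkm1, 9 fell in shPkm2. In these 3 comparisons 31.4%, 34.2% and 27.3% of all genes fell. The median was -1.94 in shPkm1 and -6.73 in shPkm2 against shScr. In shPkm2 the muscle chaperone Unc45b fell by 7.60 and the myosin-binding Mybph fell by 7.73. In shPkm1 Mybpc1 fell by 4.96 (-4.34 without shScr replicate 1) and Myom3 fell by 2.83.

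The smooth muscle and stress fibre list (18 genes, all tested) had 7 risen and 5 fallen in shPkm1 and 7 risen and 7 fallen in shPkm2 against shScr, with medians of 0.13 and -0.17. These counts too lie near the shares of all genes, 31.8% higher and 31.4% lower in shPkm1 and 33.9% and 34.2% in shPkm2. In shPkm2 against shPkm1 5 rose and 8 fell, where 25.7% and 27.3% of all genes did, with 0 to 3 called higher when a single shPkm1 or shPkm2 library was left out. On log2(TPM + 1) the splits against shScr were 12 higher and 3 lower in shPkm1 and 10 and 6 in shPkm2, where 49% and 13.7%, and 52.4% and 16.8%, of all genes were called. Tagln, an actin-binding gene of smooth muscle, was at 122 and 113 TPM in shScr, 363 and 359 TPM in shPkm1, and 69.5 and 77.02 TPM in shPkm2. Like Myl9 it was higher in shPkm1 (1.22) and lower in shPkm2 (-1.14). Cnn1 rose by 1.64 in shPkm1 and by 0.50 in shPkm2 (edgeR adjusted p = 0.0381 in shPkm2). Cald1 rose by 1.13 in shPkm1 and by 1.56 in shPkm2. The actin gene Acta2 fell by 1.10 in shPkm1 and by 2.24 in shPkm2. The tropomyosin gene Tpm2 gave -1.75 in shPkm1 and -4.10 in shPkm2, and Lmod1 fell by 4.01 in shPkm2.

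Among the regulators (11 genes, 9 tested, Myocd and Myf6 too low) none rose and 5 fell in shPkm1, and 2 rose and 6 fell in shPkm2, where 31.8% and 33.9% of all genes rose and 31.4% and 34.2% fell. In shPkm2 against shPkm1 2 rose and 5 fell, where 25.7% and 27.3% of all genes did. On log2(TPM + 1) the splits against shScr were 3 higher and 5 lower in shPkm1 and 3 and 6 in shPkm2, where all genes also had more higher calls (49% against 13.7% lower in shPkm1, 52.4% against 16.8% in shPkm2). The myogenic factor Myog stood at 2126 and 2051 TPM in shScr, 1429.8 and 1437 TPM in shPkm1, and 67.2 and 73.5 TPM in shPkm2. It fell by 0.94 in shPkm1 (edgeR adjusted p = 3.2e-05) and fell by 5.35 in shPkm2 (edgeR adjusted p = 1.06e-11). Mef2c, a partner of the myogenic factors, was at 5.07 and 1.34 TPM in shScr, 0.96 and 0.95 TPM in shPkm1, and 0.07 and 0.05 TPM in shPkm2. It gave -2.25 and -6.02, and the size rested on the control libraries: without shScr replicate 1 the values were -0.88 and -4.64, and without shScr replicate 2 they were -2.96 and -6.72. Myf5, a factor of undifferentiated myoblasts, rose by 1.74 and Mrtfb, a cofactor of Srf, by 0.52 in shPkm2. Srf itself fell by 0.81 in shPkm1 and by 0.86 in shPkm2 (edgeR adjusted p = 1.02e-05 and 3.71e-06). Mrtfa was not called in either.

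**Figure D5:**
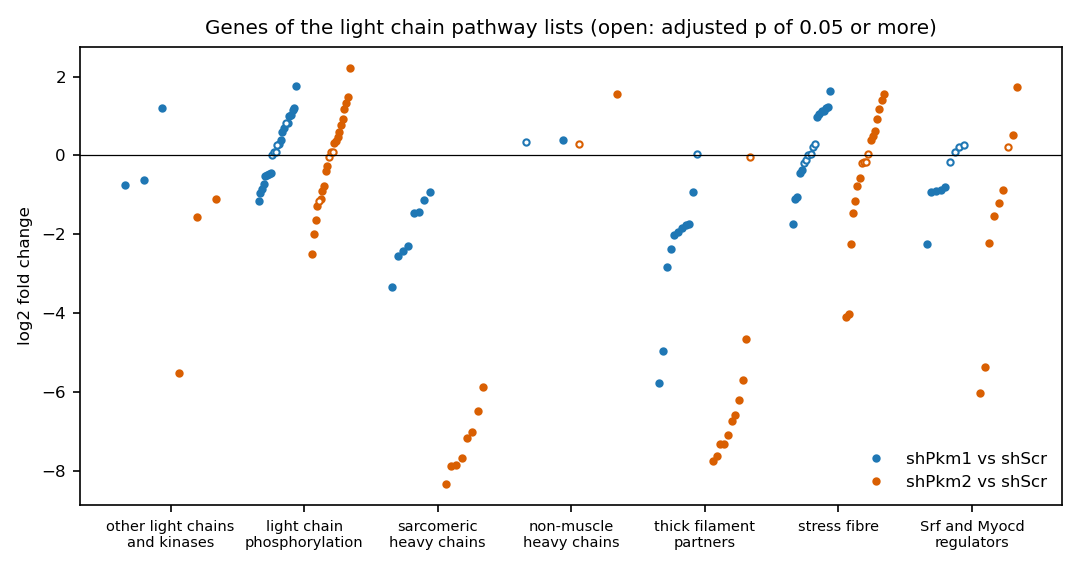
Log2 fold change from edgeR of each tested gene of the 7 lists, for shPkm1 and shPkm2 against shScr, with open points where the adjusted p was 0.05 or more. Myh13 (2.19 in shPkm1) and Myh14, at 0 in both libraries of a group, are left out. The other sarcomeric heavy chains lie below 0, as do the thick filament partners other than Unc45a (0.04 in shPkm1). The phosphorylation and stress fibre lists spread to both sides.

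The genes most like a member were found as those with the smallest root mean square difference of log2 counts scaled to library size, centred over the 6 libraries, among 10714 genes. For Mylpf they were Mybph (0.113), Pgm5 (0.125) and Casq2 (0.144). For Myl9 they were Drp2 (0.101), Ppp1r14c (0.125) and Tecr (0.189). For Mylk they were Cpq (0.0709), Bdkrb2 (0.0818) and Peli2 (0.0968). As an example of the likeness, Tecr measured 623 and 605 TPM in shScr, 1308 and 1244 TPM in shPkm1, and 377 and 389.7 TPM in shPkm2, as Myl9 did in order. These are descriptions of 6 libraries that share their group structure.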

How the data were processed

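The authors' deposited table gives, for each RefSeq transcript and library, an estimated count, a TPM value and an FPKM value, per the file headers. The submitters' processing notes name HISAT, StringTie, Bowtie, RSEM and DESeq2 and the build mm10, with no versions or roles. Strandedness is not given in the sources used here. Estimated counts were summed per NCBI gene, rounded and tested with edgeR 4.0.16 in R 4.3.3 (TMM, filterByExpr with a minimum count of 10 and total of 15, 1 coefficient per group over all 6 libraries, two-sided quasi-likelihood F-test). Transcripts were tested alike. The deposited TPM were used for levels and shares, tested with limma 3.58.1 at pseudocounts of 1 and 0.1, and FPKM were used in place of TPM for the shares. DESeq2 1.42.0 was an alternative. Scripts were tested on simulated data.

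Symbols were missing for 113 genes, which held at most 0.148% of a library. The members and lists were chosen with earlier results of these data known. All members were named, and from each list up to 2 risen and 2 fallen genes per comparison with a mean of at least 50 counts (any detected gene could be named in lists of up to 9). Unc45a, Srf, Mrtfa, the shPkm2 values of Tagln, Acta2, Cnn1 and Ppp1cb, and the shPkm1 value of Cald1 were added after their values were seen. Replicate numbers were taken not to pair libraries: deviations of same-numbered libraries correlated at -0.031, 0.078 and 0.11 over 10953 genes. One result on the light chain phosphorylation list is not reported here.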

Additional observations from a re-analysis of the deposited data

Results flagged for a closer look

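Myl9 and Mylk drew attention because edgeR called them higher than shScr in shPkm1 and lower in shPkm2. Some of these calls were fragile: the Myl9 rise in shPkm1 was lost with DESeq2 (adjusted p = 0.194) and in 3 of the 4 fits without 1 shScr or shPkm1 library (0.13 without shScr replicate 2), the Mylk rise without shPkm1 replicate 1 (adjusted p = 0.0556), and the Mylk fall in shPkm2 on log2(TPM + 1) with limma (adjusted p = 0.192). The difference between the hairpin effects equals the direct contrast of shPkm2 with shPkm1, which called 8 of the 9 members and does not test whether the signs around shScr are opposite. For Myl9 it was -1.90 on the log2 scale (edgeR adjusted p = 1.54e-06) and for Mylk -1.25 (edgeR adjusted p = 4.12e-06). The difference was negative in every alternative: -1.96 to -1.77 for Myl9 and -1.32 to -0.97 for Mylk. Both genes were picked for opposite calls against shScr and a call in this contrast, so its sign and p-value add no support. No group has enough libraries for a search for single libraries that stand apart.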

How the results depend on the processing

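Of 405 alternative values for the 9 member genes, 373 kept direction and call, 30 lost the call and 2 changed sign (Myl12a in shPkm1, 0.11 at both TPM pseudocounts). Every lost call concerned Myl6, Myl12a, Myl12b, Myl9 or Mylk; the calls of Mylpf, Myl1, Myl4 and Myl6b held in every alternative run. The median of all genes moved by 0.19, 0.32 and 0.13 with library totals and by 0.31, 0.36 and 0.06 on log2(TPM + 1), in the order shPkm1 and shPkm2 against shScr and shPkm2 against shPkm1. Calls of member transcripts were less stable. Against 9 in shPkm1, 0 were called without shPkm1 replicate 1 or 2 and 7 to 9 without another library. Against 17 in shPkm2, 11 were called with only the groups compared, and 10 to 13 with single libraries left out (13 without shScr replicate 2). Against 12 in the direct contrast, 7 were called with the replicate block, 6 without any one shPkm1 or shPkm2 replicate and 10 to 11 without a shScr replicate. The replicate block ended 1 member gene call, Myl12a in the direct contrast (adjusted p = 0.0635). Against 0, a changed share was called for 1 member transcript in shPkm2 against shScr (Myl6 NM_001317220.1, with only the groups compared or without a shPkm1 replicate) and 1 in shPkm2 against shPkm1 (Myl1 NM_021285.3 with only the groups compared or without a shScr replicate, Myl6 NM_001317220.1 without shPkm1 replicate 1), and 0 without any other library. The sarcomeric share became 72.6%, 50.8% and 2.31% from counts and 80.9%, 57.9% and 3.29% with Myl6b counted as sarcomeric, chosen after seeing the data. With curated transcripts it was 57.2% in shPkm1. The essential share became 41.5%, 35.0% and 45.7% from counts and 30.4%, 36.1% and 72.0% with curated transcripts. Among list genes, Myh9 in the direct contrast, never called, changed sign with library totals (0.0636) and ranged from -0.262 without shPkm2 replicate 1 to 0.0865 without shPkm2 replicate 2. Among transcripts without a call, signs turned with library totals for Mylk XM_006521702.1 (0.0323), Myl6 NM_001317218.1 (0.11 in shPkm1, 0.0052 in shPkm2) and Myl12a NM_026064.2 (0.143). With single libraries left out, Mylk XM_006521702.1 ranged from -0.362 to 0.146, Myl6 NM_001317218.1 from -0.163 to 0.0389 and Myl12a NM_026064.2 from -0.104 to 0.0492 in shPkm1, and Mylk NM_139300.3 from -0.0267 to 0.390 in shPkm2. The causes were not tested. The fewest estimated counts of a member gene in a library were 125 (Myl1 in shPkm2), and how far depth limits small differences was not tested.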
